A study of Mus musculus with 15 samples.

Results

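Heat shock proteins and related chaperones were described in mouse cortex from 2 groups, animals given high-frequency head impact (HF-HI) and Sham controls, 1 month later. Members were the protein_coding transcripts whose GENCODE M21 gene name is that of an Hsp70, Hsp110, Hsp90, Hsp60, Hsp10 or small heat shock protein, a Dnaja, Dnajb or Dnajc protein, a CCT subunit or Tcp1, with Hspa5 and Hsp90b1 left out. The rule used names and biotype, not expression. It found 63 transcripts of 51 genes among the 10370 transcripts and 7740 genes in the data. A further 30 annotated protein_coding genes with such names had no protein_coding transcript in the table and are no members, among them Hspa1a, Hspa1b, Hspb1 and Hspb8. The set is wider than the cytosol, since 7 member genes act in mitochondria (such as Hspa9 and Hspd1) and 10 are linked to the endoplasmic reticulum (ER) (such as Dnajb11 and Dnajc3).

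The study asked how cortical expression stands after a month of recovery. The libraries came from whole dissected cortex of male mice labelled as C57BL/6 (C57Bl/6J in the study's methods) and 12 weeks old, with 7 Sham and 8 HF-HI libraries. HF-HI mice received repeated impacts to the head under isoflurane on consecutive days, and Sham mice had the same handling and anesthesia with no impact, so both groups carry the effects of anesthesia. Values are normalized counts per transcript, which are reads recovered from the deposited variance-stabilized (VSD) values and divided by the size factor of the library. The labels number the libraries and do not say that each is a separate mouse, so p-values measure the spread between these libraries. In bulk tissue, fewer cells of a type and less RNA per cell cannot be told apart.

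Molecular chaperones bind unfolded stretches of other proteins and help them to fold, refold or reach the proteasome. Hsp70 proteins work in a cycle in which a J protein (the Dnaj families) delivers a client and starts ATP hydrolysis, and an exchange factor such as an Hsp110 protein releases it. Hsp90 takes over many kinases and receptors late in folding, and the ring-shaped chaperonin CCT, also called TRiC, folds actin and tubulin. Heat shock factor 1 (Hsf1) drives the inducible members by binding inverted repeats of GAA in their promoters. In neurons several J proteins serve the synapse, where they uncoat clathrin vesicles or protect proteins of exocytosis.

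Promoter sequence of the members was examined for that repeat. RefSeq windows of GRCm38.p6, from 250 bases before to 50 after each start site, matched 41 of the 51 member genes. The element searched was GAANNTTC or TTCNNGAA, each of which reads the same on both strands, and overlapping matches were allowed. At least 1 of these 2-unit elements was present in 26.8% of the 41 member genes and in 17.0% of 27025 genes with a window. A 3-unit run, in which 2 of these elements share a unit, was present in 9.76% of the member genes and in 0.662% of all genes. The 4 member genes with such a run were Hspd1, Hspe1, Hsph1 and Dnajb6. Stretches upstream of RefSeq start sites are given with the elements in capitals. They were chosen to set the runs of Hspd1, Hspe1 and Dnajb6 beside single elements of other members.
Hspe1 and Hspd1, chr1:55088051-55088084, + strand: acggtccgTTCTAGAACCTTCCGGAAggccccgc
Dnajb6, chr5:29735844-29735872, + strand: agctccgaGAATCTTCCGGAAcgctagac
Hsph1, chr5:149636354-149636377, - strand: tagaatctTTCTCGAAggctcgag
Dnajb4, chr3:152193846-152193867, - strand: gttcgctgTTCTAGAAagtaca
Dnaja1, chr4:40722336-40722359, + strand: agcctctaGAAAATTCtacgaggc

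The first stretch lies between the listed transcripts of 2 genes that are read away from each other, so the same bases stand upstream of both. The first element as printed begins 89 bases before the RefSeq start site of Hspe1. It begins 134 bases before the nearer RefSeq start site of Hspd1, read on the other strand. The Dnajb6 stretch lies upstream of its main listed transcript ENSMUST00000114839 and inside the first exon of ENSMUST00000008733. The Hsph1 stretch holds 1 of 3 elements of its window. The overlapping elements of its 3-unit run lie after the RefSeq start sites. They are still upstream of the listed transcript ENSMUST00000074846, which begins at chr5:149636209 on the - strand. Sequences upstream of Dnajb1 and Dnajb5 are given because these genes had the smallest p among the members, at the level of summed transcripts. Neither the 300-base windows of Dnajb1 nor those of Dnajb5 held these letters. The Dnajb5 bases given end just before its retained-intron transcript ENSMUST00000142332, which is outside the rule. No Dnajb5 window reaches the start of the member ENSMUST00000107973, at chr4:42953094.
Dnajb1, chr8:83607925-83608174, + strand: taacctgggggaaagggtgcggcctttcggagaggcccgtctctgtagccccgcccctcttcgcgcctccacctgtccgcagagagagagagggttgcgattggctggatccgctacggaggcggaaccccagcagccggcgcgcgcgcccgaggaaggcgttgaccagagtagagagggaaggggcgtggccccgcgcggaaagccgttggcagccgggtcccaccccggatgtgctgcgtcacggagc
Dnajb5, chr4:42950146-42950350, + strand: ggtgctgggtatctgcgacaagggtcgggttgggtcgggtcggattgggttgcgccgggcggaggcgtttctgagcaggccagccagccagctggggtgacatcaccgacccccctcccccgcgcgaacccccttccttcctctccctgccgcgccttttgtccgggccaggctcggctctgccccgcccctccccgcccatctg

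Few chaperone transcripts differed between HF-HI and Sham. In the limma fit over all 10370 transcripts, 3 of the 63 members (4.76%) had an unadjusted p under 0.05, against 8.83% of all transcripts. Of these, 2 were higher in HF-HI (background 4.94%) and 1 was lower (background 3.9%). No transcript in the whole table passed the study's threshold, a Benjamini-Hochberg adjusted p under 0.1 with limma, while 916 had an unadjusted p under 0.05. No member had groups that did not overlap, where 0.154% of all transcripts did. The median log2 ratio of mean normalized counts was 0.02 over the members and -0.0019 over all transcripts, with 38 member differences above 0 and 25 below. Summed over the listed transcripts of a gene and fitted with voom, 3 of 51 member genes (all higher in HF-HI) had an unadjusted p under 0.05, against 9.43% of 7740 genes, or 5.19% counting those higher. No member gene had a Benjamini-Hochberg adjusted p under 0.1 in that fit, where 1 gene in all (0.0129%) did. A log2 difference smaller than 0.1 in size was found for 43 of the 51 genes.

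**Figure D1:**
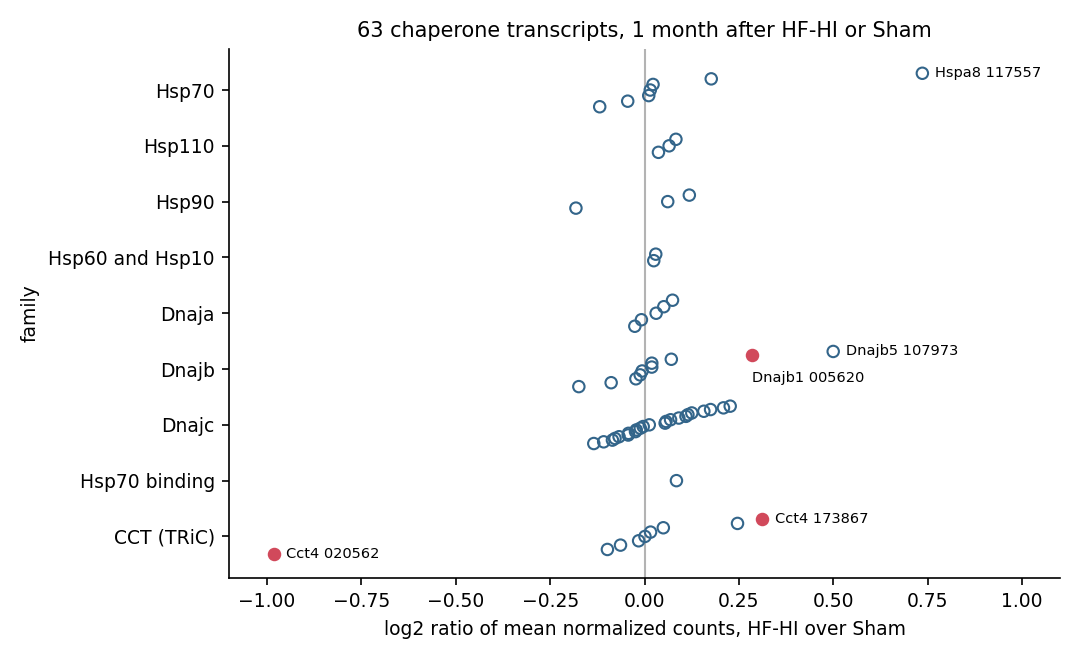
Each point is 1 of the 63 member transcripts, placed by the log2 ratio of mean normalized counts (HF-HI over Sham, x axis) and by family (y axis). Filled points are the 3 with a limma unadjusted p under 0.05, labels give the last digits of the transcript name, and most points lie close to 0, with a median log2 ratio of 0.02.

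Among the J proteins of class B, Dnajb1 and Dnajb5 were higher in HF-HI. Dnajb1 encodes the main heat-inducible J partner of cytosolic Hsp70. Its transcript (ENSMUST00000005620, chr8:83608193-83612653, + strand) had 293.2 normalized counts in the lowest, 324 in the median and 347 in the highest Sham library. The HF-HI libraries ran from 333 through a median of 383 to 466. Each of the 8 HF-HI values exceeded the Sham median and 6 exceeded the highest Sham library, so the groups overlapped in 2 HF-HI libraries. The means were 320.3 ± 21.5 (SD, n = 7) and 390.2 ± 43.3 (SD, n = 8), a log2 ratio of 0.28. The VSD difference was 0.08 (SE 0.02), with a limma unadjusted p of 0.00129 and a Benjamini-Hochberg adjusted p of 0.299. The unadjusted p stayed under 0.05 without any 1 library (highest 0.00355) and with the log2 size factor as a covariate (0.00383).

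Dnajb5, another class B J protein, had a protein_coding and a retained-intron transcript in the table. Its summed level was 262 in the lowest, 448 in the median and 497 in the highest Sham library, and 488, 592 and 715 in HF-HI. Of the 8 HF-HI libraries, 7 lay above every Sham library, and the Sham values had a longer lower tail. The log2 difference of the sum was 0.49 (SE 0.11, interval 0.28 to 0.70), with a voom unadjusted p of 0.000239 and a Benjamini-Hochberg adjusted p of 0.158. The unadjusted p was 0.000761 or less without any 1 library and 0.000251 with the size factor as a covariate.

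The 2 Dnajb5 transcripts had nearly equal log2 ratios, 0.50 and 0.51, and unequal spread. The member ENSMUST00000107973 (chr4:42953094-42958723, + strand) ran from 28.1 through 247 to 329 in Sham and from 142 through 316 to 373 in HF-HI, and its limma unadjusted p was 0.0697. The lowest Sham value was that of replicate 3, and without it the log2 ratio was 0.30 and the VSD difference 0.08 in place of 0.15 (p 0.149 with limma). The retained-intron transcript ENSMUST00000142332 (chr4:42950351-42958732), named here after its values were seen and outside the rule, ran from 168 through 203 to 244 in Sham and from 237 through 287 to 409 in HF-HI (limma unadjusted p 0.00106, Benjamini-Hochberg adjusted p 0.293). With the protein_coding transcript alone, the gene's voom unadjusted p was 0.0746, above the threshold.

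**Figure D2:**
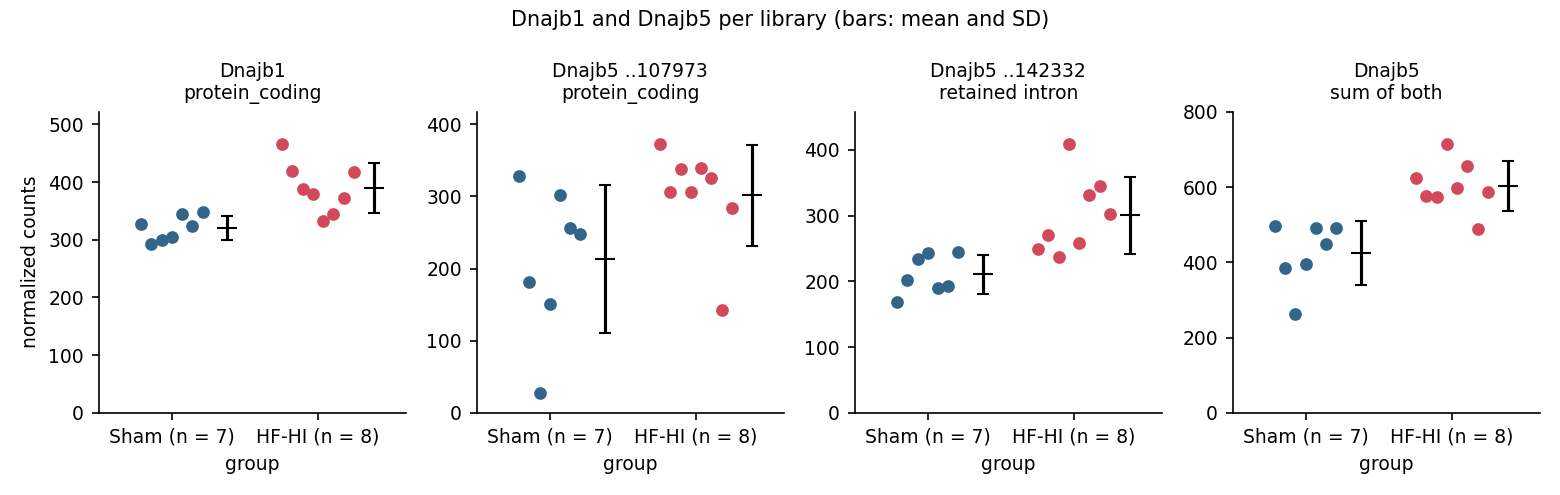
Normalized counts (y axis, from 0) of Dnajb1, of both Dnajb5 transcripts and of their sum in each of the 7 Sham and 8 HF-HI libraries (x axis), with bars for the mean and SD. In Dnajb1, 6 HF-HI libraries lie above the highest Sham library, and in the Dnajb5 sum 7 do.

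Dnajb6, which keeps aggregation-prone proteins soluble, had its main transcript ENSMUST00000114839 at 945 to 1152 in Sham and 966 to 1161 in HF-HI (limma unadjusted p 0.919). Its second transcript ENSMUST00000008733 was at 113 to 221 and 98.5 to 212 (p 0.324 by the same test). Near-identical stretches of other genes cover 45.3% and 30.6% of them, so their reads are uncertain. Dnajb4, a cytosolic J protein, had log2 ratio 0.07, and Dnajb2, a neuronal J protein that guides clients to the proteasome, 0.02. In all, 1 of 10 class B transcripts had a p under 0.05, against 8.83% of all transcripts.

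Class A J proteins are the closest relatives of the bacterial DnaJ. Of their 5 transcripts, 0 had a limma unadjusted p under 0.05, against 8.83% of all transcripts. Dnaja1, a farnesylated partner of cytosolic Hsp70, had 1071 to 1258 counts of its longer transcript in Sham and 1088 to 1281 in HF-HI. The log2 difference of its summed level was 0.03 (interval -0.05 to 0.12), and near-identical copies cover 35.4% of this transcript and 91.0% of the shorter one. Dnaja2, Dnaja3 (the mitochondrial form) and Dnaja4 had log2 ratios of -0.03, -0.01 and 0.03.

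Class C J proteins, which are the most varied in where they act, made up 23 transcripts of 17 genes. None had a limma unadjusted p under 0.05, against 8.83% of all transcripts. The smallest was that of Dnajc21, a factor in ribosome assembly, at 0.0559. Its level was 160 to 238 in Sham (median 179) and 177 to 281 in HF-HI (median 226), and 2 HF-HI libraries lay above every Sham library. The voom fit on the gene gave a log2 difference of 0.24 (SE 0.11), an unadjusted p of 0.0361 and a Benjamini-Hochberg adjusted p of 0.49. This p was at most 0.101 when 1 library was left out, and 7 of those 15 fits gave a p of 0.05 or more, those that left out replicate 1, 2, 3 or 4 of Sham and replicate 3, 4 or 8 of HF-HI.

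The synaptic J proteins showed narrow gene-level differences. Dnajc5 encodes cysteine string protein, a vesicle protein that protects the SNARE SNAP-25, and its sum was 2855 to 3121 in Sham and 2877 to 3174 in HF-HI. The log2 difference was 0.03 (interval -0.02 to 0.08). Dnajc6 encodes auxilin, which recruits Hsc70 to strip clathrin from vesicles, and its sum of 6 transcripts was 3769 to 3950 and 3773 to 4099 (log2 difference 0.02, interval -0.02 to 0.06). Dnajc13, an endosomal J protein, had 739 to 798 counts in Sham and 760 to 883 in HF-HI, with a limma unadjusted p of 0.141. The 3 lowest coefficients of variation over the Sham libraries among all members were those of Dnajc14 (2.12%), Dnajc18 (2.25%) and Dnajc13 (3.24%).

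Hspa8, the constitutive cytosolic Hsc70, was by far the most abundant member per length of transcript. Its main transcript ENSMUST00000015800 had 5281 normalized counts per kb in Sham, followed by Hsp90ab1 (2254 per kb) and the main Hsp90aa1 transcript (1610 per kb). Summed over 3 transcripts, Hspa8 had 13271 counts in the lowest, 14708 in the median and 15250 in the highest Sham library, and 14284, 14896 and 15677 in HF-HI. The log2 difference of the sum was 0.05 (interval -0.01 to 0.12) with a voom unadjusted p of 0.103. Near-identical stretches cover 81.1% of the main transcript (from 1 other gene) and 93.3% of ENSMUST00000117557 (from 2), so reads may be shared with copies.

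The shorter Hspa8 transcript ENSMUST00000117557 had the highest log2 ratio among the members, without passing the test. It ran from 202 through 1553 to 2165 in Sham and from 734 through 2447 to 4366 in HF-HI (log2 ratio 0.74, limma unadjusted p 0.114). In HF-HI, 5 libraries lay above every Sham library and 2 (replicate 8 at 734 and replicate 1 at 1043) lay below 6 of the 7 Sham libraries, of which the lowest was replicate 6. The VSD difference of 0.40 became 0.0006 with the log2 size factor as a covariate (p 0.998) and 0.09 without the 3 HF-HI libraries of the smallest size factors (p 0.716), a setting added after the data were seen. It gained a p under 0.05 with the replicate block (0.0327) and without HF-HI replicate 8 (0.0364). These settings are not separate, since number 8 occurs in HF-HI only and the block fit sets that library aside. The VSD difference was 0.52 in both. Its coding sequence lacks 57 bases (19 codons) of exon 4 of the main transcript, shown in capitals with 12 bases on either side, from chr9:40802739-40802795 of GRCm38, + strand.
Hspa8, bases absent from ENSMUST00000117557: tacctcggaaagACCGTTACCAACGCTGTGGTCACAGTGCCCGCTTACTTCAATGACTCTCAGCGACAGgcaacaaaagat

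The other Hsp70 proteins did not pass the test. Hspa2, an Hsp70 form best known from the testis, had 212 to 255 counts in Sham and 195 to 240.0 in HF-HI (log2 ratio -0.12, limma unadjusted p 0.072). Hspa9, the mitochondrial Hsp70 mortalin, had a log2 difference of 0.01 (interval -0.07 to 0.09). Hspa12a and Hspa13 had log2 ratios of 0.02 and 0.02, and Hspa14, a ribosome-associated form, had 0.18 (p 0.151).

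Hsp110 proteins, the exchange factors of Hsp70, had log2 ratios of 0.04 (Hspa4), 0.08 (Hspa4l) and 0.07 (Hsph1). The 8 HF-HI values of Hsph1, from 1640 to 1903 (median 1699), lay above the Sham median of 1575. The highest Sham library was replicate 5 at 2145, and the other Sham libraries lay at 1370.4 to 1730. The limma unadjusted p was 0.345 with all libraries and 0.0184 without Sham replicate 5.

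Hsp90 showed opposite signs in its transcripts. The main Hsp90aa1 transcript ENSMUST00000021698 had 3816 to 5202 counts in Sham and 4253 to 5738 in HF-HI (limma unadjusted p 0.102), and ENSMUST00000094361 had 1733 to 2102 and 1299 to 2137 (p 0.0509). Neither passed the threshold. Over 11 other settings the limma or voom unadjusted p ran up to 0.671 for ENSMUST00000021698 and 0.547 for ENSMUST00000094361. The latter had a limma p under 0.05 in 1 of them (0.0486, with median-centered values). The sum of these 2 transcripts with a retained-intron transcript differed by a log2 of 0.03 (interval -0.04 to 0.10). Hsp90ab1, the constitutive form, had 5167 to 6143 counts in Sham and 5652 to 6293 in HF-HI (p 0.0968), and its gene sum a log2 difference of 0.05 (interval -0.01 to 0.11). A near-identical stretch of another gene covers 77.3% and 68.7% of the 2 Hsp90aa1 transcripts, and none was found for Hsp90ab1.

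The mitochondrial chaperonin genes Hspd1 (Hsp60) and Hspe1 (Hsp10), which share the bidirectional stretch shown above, had log2 ratios of 0.03 and 0.02. Hspd1 ran from 1006 to 1199 in Sham and 1017 to 1263 in HF-HI, and Hspe1 from 336 to 394 and 332 to 415. Per kb of transcript the Sham levels were 442 for Hspd1 and 464 for Hspe1. A near-identical stretch of another gene covers 66.5% of the Hspe1 transcript. The 7 mitochondrial members as a list had 0 transcripts with a limma unadjusted p under 0.05, against 8.83% of all transcripts.

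Of the chaperonin CCT, 7 subunit genes with 9 transcripts were members, and 2 of the 9 (22.2%) had a limma unadjusted p under 0.05, against 8.83% of all transcripts. Both belong to Cct4, so they are not independent, and they differed in opposite directions. The transcript ENSMUST00000020562 (chr11:22990650-23003151, + strand) ran from 167 through 188 to 264 in Sham and from 2.0 through 132 to 179 in HF-HI. In HF-HI, replicate 2 had 3.08 and replicate 4 had 2.0 counts, replicate 5 had 64.1, and the other 5 lay between 130.0 and 179, of which 2 lay within the Sham range. The limma unadjusted p was 0.0113 (Benjamini-Hochberg adjusted p 0.422).

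The longer transcript ENSMUST00000173867 ran from 319 through 385 to 462 in Sham and from 345 through 456 to 668 in HF-HI. Of the HF-HI libraries, 4 lay above every Sham library, and the groups overlapped otherwise. The limma unadjusted p was 0.0382 (Benjamini-Hochberg adjusted p 0.539). Summed, Cct4 was 505 to 633 in Sham and 494 to 671 in HF-HI, a log2 difference of -0.03 (interval -0.15 to 0.10, voom unadjusted p 0.687). The shorter transcript took 27.0% to 44.8% of the sum in Sham (median 35.3%) and 0.380% to 32.4% in HF-HI (median 23.1%), a description of a gene chosen for its opposite calls.

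The coding sequences differ by 90 bases, the whole of exon 3 of the longer transcript, which lie at chr11:22994298-22994387 of GRCm38 and encode 30 codons. The exon is shown in capitals with 12 bases of the neighbouring exons.
Cct4, exon 3 of ENSMUST00000173867: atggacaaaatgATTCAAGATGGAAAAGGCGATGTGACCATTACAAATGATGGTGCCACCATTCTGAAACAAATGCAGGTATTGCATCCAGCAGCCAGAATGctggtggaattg

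Depth and the Cct4 split were set side by side. Of the 3 HF-HI libraries lowest for the shorter transcript, replicates 2 and 4 had size factors of 0.65 and 0.501, and replicate 5 had 1.22, the highest of the group. Replicate 7, at 0.585, had 133 counts of this transcript. With the log2 size factor as a covariate, the p was 0.167 for the shorter and 0.225 for the longer transcript. Without replicates 2, 4 and 7 it was 0.0154 and 0.14, in a setting added after the data were seen. With 1 library left out, the shorter transcript kept its call in all 15 fits and the longer one lost it in 7, those without replicate 3, 4 or 5 of Sham or replicate 1, 2, 4 or 5 of HF-HI. The part of depth in the split was not tested further.

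**Figure D3:**
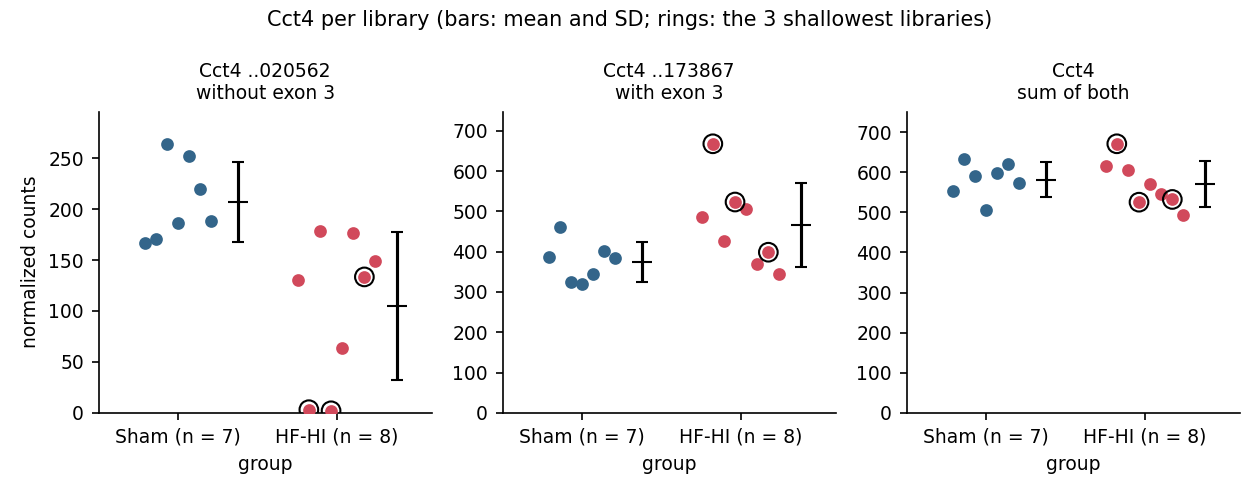
Normalized counts (y axis, from 0) of the Cct4 transcripts without and with exon 3 and of their sum in the 7 Sham and 8 HF-HI libraries (x axis), with bars for the mean and SD and rings around HF-HI replicates 2, 4 and 7. The transcript without exon 3 falls to 3.08 and 2.0 counts in replicates 2 and 4, while the sum spans 505 to 633 in Sham and 494 to 671 in HF-HI.

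The other CCT subunits had log2 ratios between -0.10 (Cct3) and 0.25 (Tcp1 ENSMUST00000089024), of which the latter was 0.03 without Sham replicate 4 (VSD difference 0.0044, limma unadjusted p 0.937). Cct2, Cct5, Cct7 and Cct8 had ratios of 0.0011, -0.02, 0.05 and 0.02. Per kb of transcript, the Sham levels of Cct2, Cct5, Cct7 and Cct8 were 468, 433, 438 and 390.1 normalized counts. Cct3 had 287.6 per kb, the 2 Cct4 transcripts 127 and 151, and those of Tcp1 214 and 339.5. Cct3 ran from 536 to 609 counts in Sham and 455 to 591 in HF-HI, with 5 HF-HI libraries below every Sham library (limma unadjusted p 0.0866).

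Tcp1, the alpha subunit, showed a library that swapped transcripts. In Sham replicate 4 ENSMUST00000089024 had 13.6 counts and ENSMUST00000151287 had 1071, where the other Sham libraries had 389 to 558 of the first and 740 to 843 of the second. The sum of Tcp1 in that library, 1234, was just below the 1328 to 1469 of the others. The transcripts also differ elsewhere, and exon 2 of the longer one, 86 bases at chr17:12917798-12917883 of GRCm38 + strand, is absent from the other.
Tcp1, exon 2 of ENSMUST00000151287: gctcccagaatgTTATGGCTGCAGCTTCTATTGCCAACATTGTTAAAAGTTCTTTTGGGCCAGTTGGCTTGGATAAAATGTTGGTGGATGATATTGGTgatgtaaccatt

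The same pattern of steady sums and unsteady transcripts held for most member genes with several listed transcripts. In 9 of 10 such genes every transcript had a larger coefficient of variation over the Sham libraries than the sum, as in 87.4% of 1639 genes overall. Dnajc6 stood at one end, with 6 transcripts at 15.2% to 61.0% and a sum at 1.56%. Its transcript ENSMUST00000106933 ran from 50.9 to 401 counts over the Sham libraries while the sum ran from 3769 to 3950. Dnajb5 was the exception, with transcripts at 14.2% and 48.2% and a sum at 20.2%.

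**Figure D4:**
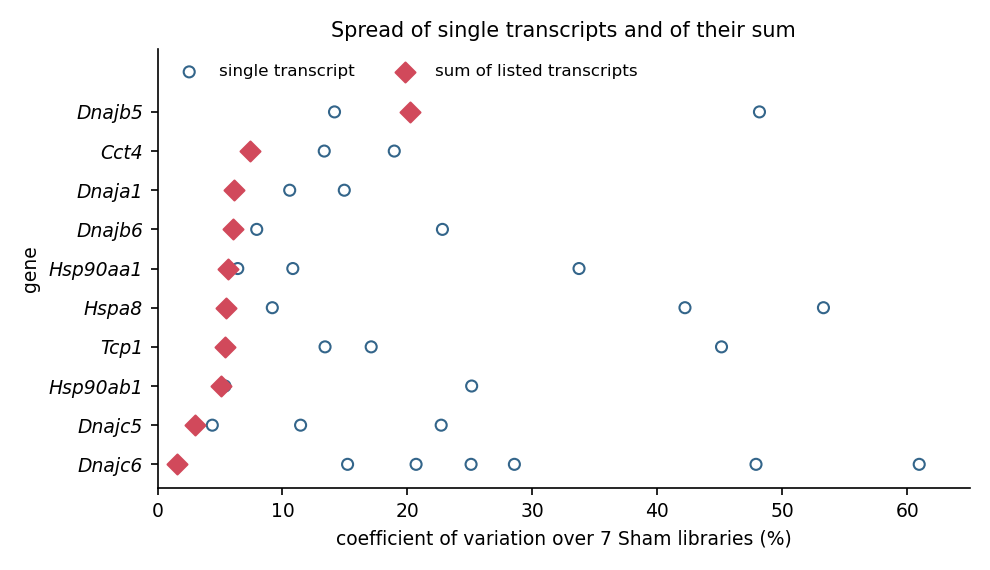
Coefficient of variation over the 7 Sham libraries (x axis, percent) of each listed transcript (open circles) and of their sum (diamonds) for the 10 member genes with several listed transcripts (y axis). Diamonds lie left of all circles in 9 genes, and in Dnajb5 the sum (20.2%) lies between its transcripts (14.2% and 48.2%).

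A list of heat-inducible Hsf1 targets, written with earlier results of these data known, held 13 member transcripts of 10 genes. Of these, 1 (Dnajb1) had a limma unadjusted p under 0.05, which is 7.69% against 8.83% of all transcripts. Of the 13 differences, 11 were above 0, where 5028 of all 10370 transcripts were. The median log2 ratio was 0.06, against -0.0019 over all transcripts. Transcripts of the same gene were counted separately. Dnajb6 was not on the list, and both of its transcripts had VSD differences below 0 (-0.0027 and -0.0359). Hspa1a, Hspa1b and Hspb1, the genes most strongly induced by heat, were not analysed here.

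Single libraries stood high or low in many members at once. Sham replicate 5 was the highest of the 7 Sham libraries in 15 members (23.8%) and in 17.7% of all transcripts. It was also the lowest in 7 members (11.1%) and in 18.1% of all. Sham replicate 6 was the highest in 14 members (22.2%) and in 13.3% of all. Sham replicate 4 was the lowest in 20 members (31.7%) and in 13.8% of all. HF-HI replicate 2 was the highest of its group in 18 members (28.6%) and in 18.2% of all transcripts, and HF-HI replicate 5 was the lowest in 13 (20.6%) and in 8.8% of all. Dnajb11, a J protein that brings clients to the ER Hsp70, had 439 counts in Sham replicate 5 and 301 to 349 in the other Sham libraries. Dnajc3, a J protein of the unfolded protein response, had 766 there and 594 to 660 in the other Sham libraries. Hspd1 had 1199 there against 1006 to 1097, and Hsp90ab1 6143 against 5167 to 5846. Leaving out Sham replicate 5 gave 8 members with a limma unadjusted p under 0.05 in place of 3, against 8.94% of all transcripts in that fit. The members gained were Hsph1 (0.0184), Dnajc21 (0.0223), Hsp90ab1 (0.0285), Hsp90aa1 in both directions (0.0348 lower and 0.0445 higher) and Dnajb5 (0.0435). The longer Cct4 transcript was lost. Leaving out HF-HI replicate 5 gave 6 members, against 9.52% of all transcripts in that fit, with Hsp90aa1 in both directions (0.0117 lower and 0.0359 higher), Cct3 (0.0374) and Dnajc14 (0.0411) gained and the longer Cct4 transcript lost.

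**Figure D5:**
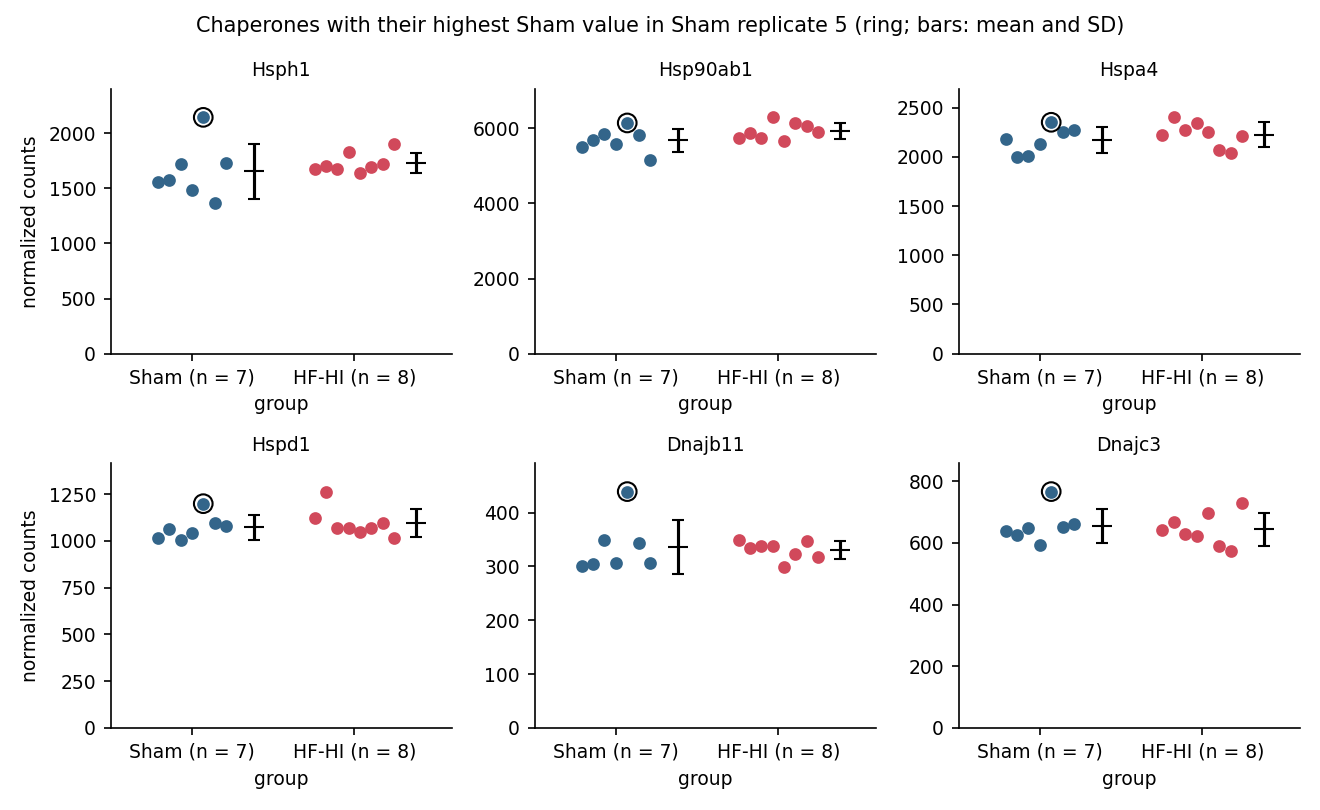
Normalized counts (y axis, from 0) of 6 chaperones in the 7 Sham and 8 HF-HI libraries (x axis), chosen after their values were seen, with Sham replicate 5 ringed and bars for the mean and SD. Its value is the highest of the Sham group in each panel, from 439 in Dnajb11 to 6143 in Hsp90ab1.

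The ER members were 10 transcripts with 0 at a limma unadjusted p under 0.05, against 8.83% of all transcripts. Their median log2 ratio was -0.0076. Hspbp1, an Hsp70 exchange factor that slows the cycle, had a log2 ratio of 0.08. The 3 highest coefficients of variation over the Sham libraries were those of 2 Dnajc6 transcripts (61.0% and 47.9%) and the Dnajb5 member (48.2%), with a median of 9.56% over the members and 10.46% over all transcripts.

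Co-chaperones and regulators outside the rule gave a like picture. Of 46 genes in the list, 37 had a protein_coding transcript (40 in all), and 3 (7.5%, against 8.83% of all transcripts) had a limma unadjusted p under 0.05, at or above 0.545 after Benjamini-Hochberg adjustment. Tomm70a, the import receptor that docks Hsp70 and Hsp90 at mitochondria, was lower (1962 to 2346 in Sham, 1828 to 2226 in HF-HI). Grpel2, a mitochondrial Hsp70 exchange factor, was higher (140.2 to 185 against 169 to 198), as was Pdcl, a CCT co-factor (255 to 307 against 282 to 336). In 9 of 11 other settings Pdcl had a p of 0.05 or more (up to 0.247), as did Grpel2 in 3 of 10 and Tomm70a in 2 of 11. The groups overlapped in each, and with 1 library left out the p was 0.05 or more in 9 of 15 fits for Tomm70a, 10 for Grpel2 and 11 for Pdcl.

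The regulator Hsf1 had 117 to 151 counts in Sham and 111 to 140 in HF-HI, with a limma unadjusted p of 0.233. Stip1, which links Hsp70 to Hsp90, had a log2 ratio of -0.01, and Stub1, the ubiquitin ligase CHIP, had 0.04. Bag3 was not analysed here.

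Cell type markers and depth were compared for the whole series. Reads in the listed transcripts were 5798810 to 10582858 in Sham and 3496103 to 8666307 in HF-HI, with 1 read worth 0.679 to 2.0 normalized counts. The mean log2 size factor differed by -0.549, HF-HI minus Sham (exact permutation p 0.028, two-sided, n = 7 and 8). Summed markers of excitatory neurons, with 6 of 6 genes listed, were 16326 to 18342 in Sham and 17136 to 19078 in HF-HI, and those of astrocytes 40273 to 42749 and 39241 to 45170. Markers of striatum, a neighbouring region, were 4390.4 to 6445 in Sham and 2654 to 5134 in HF-HI, with 5 of 6 genes listed. At a limma unadjusted p under 0.05, 2 of 9 striatal, 1 of 10 astrocyte and 1 of 5 microglial transcripts were lower. Of the excitatory transcripts, 1 of 7 was higher. None of the 5 interneuron, 13 oligodendrocyte, 4 endothelial and 3 blood transcripts passed, where 8.83% of all transcripts did. Microglial markers summed to 1238 to 1402 in Sham and 1135 to 1380 in HF-HI, endothelial ones to 1093 to 1173 and 915 to 1190, and blood ones to 319 to 827 and 412 to 1006. Their part in the results above was not tested.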

How the data were processed

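Per the study's methods, the authors depleted ribosomal RNA, built stranded libraries, aligned the reads to mm10 with STAR, counted per Ensembl transcript with eXpress, and applied DESeq2. The submitters' processing notes name STAR, DESeq2 and mm10. The authors deposited log2-scale variance-stabilized values for 10370 transcripts, lowest mean 107.9 normalized counts. Every column matched a sample by name. The transformation was inverted, which gave whole reads for 100.0% of values within 0.1 reads. Of the transcripts, 129 had no entry in GENCODE M21 and could not be members.

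Differences are HF-HI minus Sham, two-sided. Transcripts were fitted with limma 3.58.1 (R 4.3.3) on the deposited log2 values, with group as the term and eBayes with trend, and gene sums with voom on recovered reads. Benjamini-Hochberg adjustment ran over all features. Intervals are 95% intervals, the voom difference plus and minus its SE times the two-sided 95% value of a normal distribution. They are somewhat narrower than the moderated t-test behind the p would give, and cover the spread between libraries only. Log2 ratios are of mean normalized counts, since VSD differences understate changes at low counts. Element searches used RefSeq windows of GRCm38.p6, transcript bases GENCODE M21. Copies were matches of at least 99% identity over 100 bases. The test code was tested on simulated data.

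The plan named members with unadjusted p under 0.05, a fixed set of main chaperones and genes with transcripts called in opposite directions. It also took the 3 highest and 3 lowest in Sham variation. Partners were those with p under 0.05 plus Hsf1, Bag3, Stip1 and Stub1. Members outside the plan, such as Hspa2, Dnajb2 and Dnaja2, are also given, and Dnajc21, Dnajb11 and Dnajc3 were named for their values. Members, lists and tests were chosen with earlier results of these data known. Alternatives changed the prior, scaling, filter, weights, replicate block, depth covariate, scale and membership, and each library was left out.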

Additional observations from a re-analysis of the deposited data

Results flagged for a closer look

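Each library's gap to its nearest neighbour was compared with the group's range by Dixon's test, and 12 of 126 member and group combinations passed. The nominal rate is about 1 in 20 groups. The share flagged over all transcripts is not given, so the count is not read as a trait of chaperones. Transcripts of the same gene are not independent, as in Tcp1 below. Sham replicate 5 accounted for 4. It was lowest in Dnajc5 ENSMUST00000108797 (445.5 normalized counts, next 575.2) and Cct5 (745.5, next 797.7), and highest in Dnajc3 (766.5, next 660.2) and Dnajb11 (439.2, next 348.5). Sham replicate 4 accounted for both Tcp1 transcripts, ENSMUST00000089024 at 13.6 (next 388.9) and ENSMUST00000151287 at 1071.2 (next 842.7). Sham replicate 6 was lowest in Hspa8 ENSMUST00000117557 at 202.2 (next 1382.3).

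HF-HI replicate 2 was highest in the mitochondrial pair Hspd1 (1263.2, next 1123.7) and Hspa9 (1864.8, next 1636.3). HF-HI replicate 7 was lowest in Dnajb5 ENSMUST00000107973 at 142.0 (next 283.6) and highest in Dnajc6 ENSMUST00000094953 at 308.0 (next 147.7). HF-HI replicate 8 was highest in Dnajb14 at 1648.5 (next 1509.1).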

How the results depend on the processing

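Over 48 named results, which include the counts of called members and partners, 1121 alternative values were rated the same, 63 weaker and 22 stronger. For a single p, weaker is a call lost at the unadjusted threshold and stronger a call gained. For a count, these ratings mark only the larger changes. Of the values, 65 (in 18 results) had the other sign, none of them past the threshold (lowest limma or voom unadjusted p 0.208). Member transcripts at limma unadjusted p under 0.05 numbered 3, 2 to 8 when 1 library was left out (8 without Sham replicate 5, 6 without HF-HI replicate 5, 5 when HF-HI replicate 1 or 6 was dropped, and 2 when replicate 3 or 4 of Sham or 4 of HF-HI was). Gene sums numbered 3, and 2 to 6 when 1 library was left out (6 without Sham replicate 5, 5 without HF-HI replicate 5), and 1 of 29 among genes with at least 500 counts. There Dnajb5 had its lowest voom Benjamini-Hochberg adjusted p, 0.0975, and the highest was 0.585. Partner transcripts numbered 3, and 1 with at least 200 counts, 1 with the size factor as covariate, and 1 to 4 when 1 library was left out (1 without replicate 2, 3 or 6 of Sham or 4, 6 or 8 of HF-HI). In the fits without 1 library, 7.21% to 9.52% of all transcripts had a limma unadjusted p under 0.05. That share is not given for gene sums, nor for the filtered, covariate and block fits, so those counts have no background here. Dnajb1 had a p under 0.05 in all 11 transcript alternatives and all 15 fits without 1 library.

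Whether shared replicate numbers mark a shared cage, day or batch is not given by the labels, and correlations between libraries cannot settle it. Correlations of same-numbered deviations ran from -0.138 to 0.09, and 1 of 7 was best with its own number. Replicate number 8 occurs in HF-HI only, so a fit with the replicate block compares replicates 1 to 7 of both groups. With the replicate block, 4 member transcripts, 2 genes and 1 partner transcript passed, and the share over all features in that fit is not given. The Dnajb1 p was 0.0118 (limma) and that of Dnajc21 summed was 0.159 (voom).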

Other observations

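Listed transcripts of other biotypes gave further values of the member genes. Of 7 such transcripts, the Dnajb5 retained-intron transcript was the one with a limma unadjusted p under 0.05, against 8.83% of all transcripts. Hsp90ab1 ENSMUST00000163966, annotated to nonsense-mediated decay, had 165 ± 41.5 normalized counts in Sham (SD, n = 7) and 125 ± 35.8 in HF-HI (SD, n = 8), with a limma unadjusted p of 0.06. The genes Cct6a, a CCT subunit, and Dnajc15, a mitochondrial J protein, were listed with other biotypes only. Cct6a had 556 ± 24.9 and 558 ± 38.3 counts, and Dnajc15 had 143 ± 7.95 and 150.5 ± 17.5 (limma unadjusted p 0.923 and 0.381).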
